A study of Mus musculus with 16 samples.

Results

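Tumor-associated macrophages are described here by 10 genes, Adgre1, Csf1r, Cd68, Mrc1, Spp1, Trem2, Gpnmb, Chil3, Nos2 and Cbr2, out of 21959 genes listed in each count table. The genes were chosen by name, by someone who knew results of these data, and all 10 passed the filter on low counts that left 13968 genes to test. The tests below set a difference between groups against the spread between mice, and none of them is evidence that is independent of how the list was drawn up. Each mouse carried liver metastases of MC38, a mouse colon adenocarcinoma cell line that had been injected into the spleen of 6-week-old male C57BL/6 mice. The 4 groups of 4 mice were PBS controls, mice given SB525334 at 20 mg/kg by daily oral gavage, mice given KN046 at 10 mg/kg by repeated intraperitoneal injection, and mice given both agents, called the combination group. SB525334 blocks ALK5, the type I receptor of TGF-β, and KN046 is a bispecific antibody that blocks PD-L1 and CTLA-4. Total RNA of tumor tissue was sequenced as an mRNA library, so the reads came from tumor cells, host liver and infiltrating cells together.

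Macrophages enter a liver metastasis as blood monocytes or are the resident phagocytes of the liver, called Kupffer cells, and both depend on the receptor CSF1R and its ligands CSF1 and IL-34. In tumors they take on mixed states that remove dying cells, handle lipid, remodel matrix and restrain or support T cells. ADGRE1 (F4/80), CSF1R and CD68 mark macrophages broadly, TREM2, GPNMB and SPP1 (osteopontin) belong to a lipid-handling and matrix-remodeling state, MRC1 (CD206), CHIL3 (Ym1) and CBR2 are associated with alternative activation or resident macrophages, and NOS2 (inducible nitric oxide synthase) marks inflammatory activation. Several of these genes are also used by other cells: tumor and epithelial cells can make SPP1, granulocyte precursors make CHIL3, and liver endothelium makes MRC1.

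Total counts ran from 18368994 to 23877131 per mouse. Levels are given as CPM, counts scaled to library size after edgeR's TMM scaling, and differences as log2 fold changes with their standard error (SE) and the adjusted p of edgeR's quasi-likelihood test over all 13968 genes. Within the control group, mice 1 and 2 resembled each other closely, as did mice 3 and 4: the median chi-square of their counts per gene was 1.25 and 0.956, against 2.82 to 18.7 for every other pair of mice in a group. Even so, 24.8% of genes in the one pair and 18.1% in the other exceeded the 95% point of a chi-square, more than counting error gives. Each control mouse has its own label and the 4 were kept as separate samples, but libraries prepared from the same animal would also differ by more than counting error, so the controls may stand for 2 animals. For the members the gap between these control pairs was large, with mice 1 and 2 at 3.66 times the mean level of mice 3 and 4 for Nos2, 1.90 times for Mrc1, 1.80 times for Spp1, 1.51 times for Csf1r and 1.47 times for Adgre1. The comparisons with control were therefore also run with each control pair summed to 1 sample. In bulk tissue, fewer macrophages and less RNA per macrophage cannot be told apart.

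Few of the 10 genes differed between groups beyond the spread between mice. Against control, Cbr2 rose with SB525334, and no member was called with KN046 or with the combination. Against KN046 alone, Trem2 and Cd68 rose with the combination, and Trem2 and Cbr2 were higher with SB525334. With SB525334 1 of 10 members was called, beside 9.61% of all genes tested (0.394% higher and 9.22% lower). With KN046 0 of 10 were called beside 4.0% of all genes (1.60% higher and 2.40% lower), with 3 members at an unadjusted p under 0.05 and 0 called by DESeq2. That background was not stable. Of 224 genes higher and 335 lower, 0 and 0 were called with the control pairs summed. Without 1 mouse, the counts ran from 10 and 11 (KN046 mouse 1) to 923 and 1173 (KN046 mouse 2). They were 17 and 48 without control mouse 4, and 29 and 31 without KN046 mouse 3. With the combination 0 of 10 were called beside 11.1% (1.37% higher and 9.74% lower), with 3 at an unadjusted p under 0.05, while DESeq2 called 2, Trem2 and Cbr2. In the combination against KN046, 2 of 10 were called, both higher, beside 24.4% of all genes called, 9.89% higher and 14.5% lower. In SB525334 against KN046, 2 of 10 were called, both higher, beside 20.0%, 6.48% higher and 13.5% lower. In the combination against SB525334, 0 of 10 were called beside 3.57% (0.544% higher and 3.03% lower), with 1 at an unadjusted p under 0.05 and 0 called by DESeq2. Counted in either direction, these shares were near or below the background. All members called were higher, and in that direction alone the shares exceeded it. They were 1 of 10 beside 0.394% with SB525334 and 2 of 10 beside 9.89% in the combination against KN046. In SB525334 against KN046 they were 2 of 10 beside 6.48%. With 1 or 2 members called, the counts describe single genes and do not show a change of the list.

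**Figure D1:**
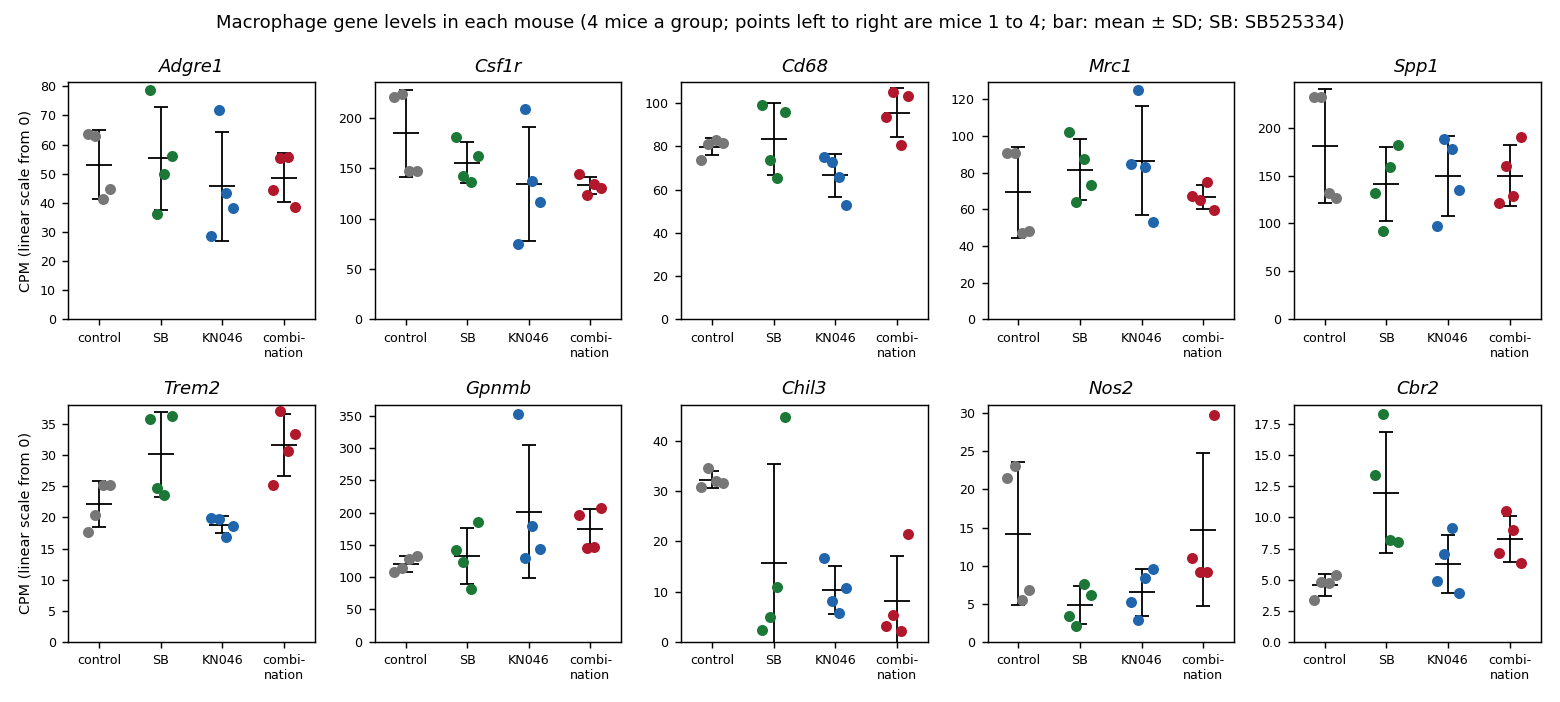
Level of each of the 10 genes in each mouse, in CPM on a linear axis from 0, with 1 panel per gene and the 4 groups side by side. Points from left to right are mice 1 to 4, the bars are the mean ± SD of 4 mice and are cut off at 0. Trem2 of the 4 combination mice lies above that of the 4 KN046 mice, as was so in either direction for 20.3% of all genes. Chil3 of the controls lies at 30.7 to 34.6 CPM while the treated mice spread down to 2.24.

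The median over the list lay near that of all genes with SB525334 and the combination, and under it with KN046. The median log2 fold change of the 10 members was 0.06 with SB525334 (5.9e-04 over all genes tested), -0.25 with KN046 (-0.03 over all genes) and 7.6e-04 with the combination (0.01 over all genes), each against control. It was 0.05 in the combination against KN046, -0.06 in the combination against SB525334, 0.24 in SB525334 against KN046 and 0.27 in the interaction. The matching medians of all genes were 8.1e-04, 0.008, -0.02 and 0.009. Per kilobase of the canonical transcript, the scale on which levels of different genes can be compared, the mean over the 16 mice was highest for Spp1 (69.7 CPM per kb) and Cd68 (68.0), followed by Gpnmb (41.1), Csf1r (25.1), Trem2 (23.6), Adgre1 (15.1), Mrc1 (13.9), Chil3 (10.8), Cbr2 (6.98) and Nos2 (2.40). The mean level of the highest group was 4.0 times that of the lowest for Chil3, 3.06 times for Nos2 and 2.63 times for Cbr2, and 1.21 to 1.68 times for the other 7 genes. Ordered by their means, no neighboring groups differed past the threshold for any member.

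**Figure D2:**
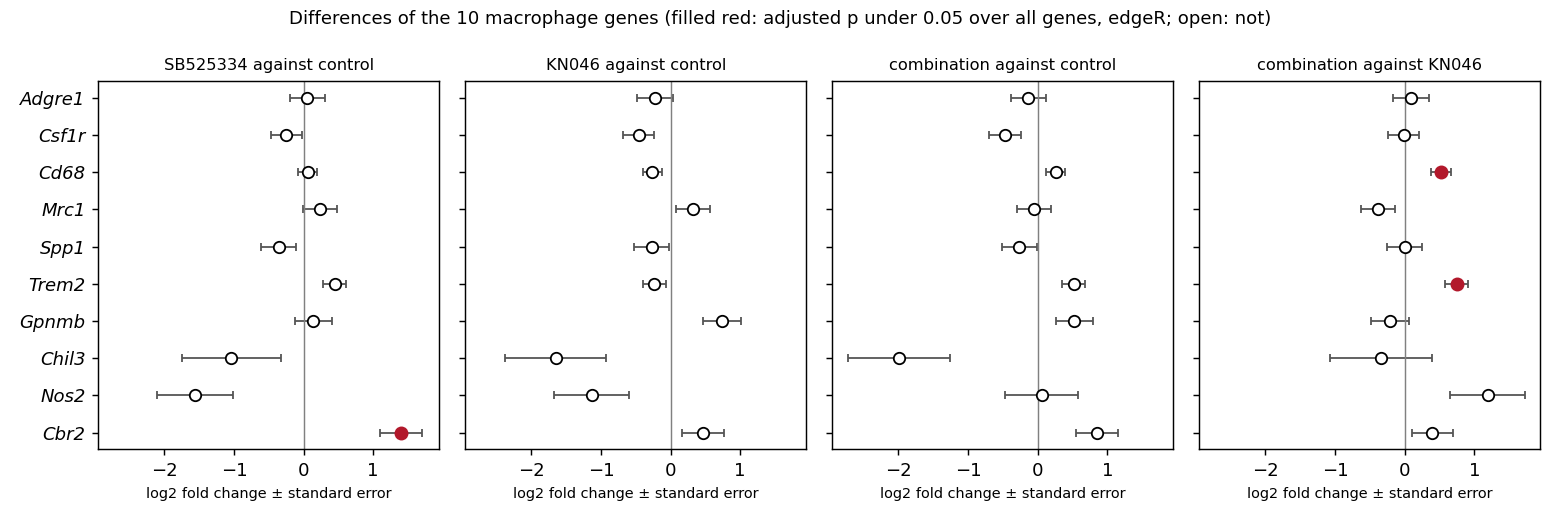
Log2 fold change of each of the 10 genes, with its SE, in SB525334, KN046 and the combination against control and in the combination against KN046. Filled red points passed an adjusted p of 0.05 (edgeR): Cbr2 with SB525334, and Cd68 and Trem2 in the combination against KN046.

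Among the broad macrophage genes, Cd68 changed and the other 2 did not pass the test in any comparison. Adgre1 (ENSMUSG00000004730, chromosome 17 of GRCm39, 57665573 to 57790527), an adhesion receptor that defines mature mouse macrophages, had 63.5, 63.0, 41.3 and 44.6 CPM in control mice 1 to 4. It had 78.7, 36.2, 50.0 and 55.9 CPM with SB525334, 28.6, 72.0, 43.5 and 38.3 with KN046, and 44.4, 55.2, 55.8 and 38.7 with the combination. The 4 groups overlapped throughout, with log2 fold changes against control of 0.05, -0.22 and -0.13 and adjusted p of 0.945, 0.64 and 0.804 for SB525334, KN046 and the combination. Its group means ran from 55.2 ± 17.7 CPM with SB525334 to 45.6 ± 18.6 with KN046 (SD, n = 4 each).

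Csf1r (ENSMUSG00000024621, chromosome 18), the receptor tyrosine kinase that keeps macrophages alive, overlaps Hmgxb3 on the opposite strand, and whether the counting used strand is not given in the sources used here. Its levels were 221, 224, 147 and 147 CPM in the controls and 182, 143, 136 and 162 with SB525334. With KN046 they were 74.5, 209, 138 and 117 CPM, the widest spread of the 4 groups, and with the combination 144, 124, 135 and 131, the narrowest. Every combination mouse lay under every control mouse, as was so in either direction for 17.4% of all genes tested. The log2 fold change was -0.47 with the combination (SE 0.22, adjusted p = 0.230) and -0.46 with KN046 (SE 0.22, adjusted p = 0.231). Without KN046 mouse 2, at 209 CPM, the KN046 value was -0.74 and passed the threshold (adjusted p = 0.0197 by edgeR), so that 1 mouse decided the call.

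Cd68 (ENSMUSG00000018774, chromosome 11, 69555037 to 69557067), a lysosomal glycoprotein of phagocytes, had 93.9, 105, 80.6 and 103 CPM with the combination. With KN046 it had 75.0, 72.7, 65.9 and 53.0 CPM, and the groups did not overlap, as was so for 20.3% of all genes. It rose by 0.52 on the log2 scale in the combination against KN046 (SE 0.14, adjusted p = 0.0116 by edgeR). Control mice, at 73.9, 81.1, 83.2 and 81.7 CPM, overlapped both groups, and SB525334 mice spread over 99.0, 73.7, 65.3 and 96.0. Neither of these groups differed from KN046 or from the combination past the threshold, and the combination against control had a log2 fold change of 0.26 (SE 0.14, adjusted p = 0.281).

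Of the lipid-handling genes, Trem2 differed between groups, while Gpnmb and Spp1 did not. Trem2 (ENSMUSG00000023992, chromosome 17, 48653429 to 48661175) encodes a receptor for lipids and apolipoproteins that signals through the adaptor TYROBP. It had 25.2, 37.1, 30.7 and 33.5 CPM with the combination, 35.9, 24.8, 23.6 and 36.3 with SB525334, 20.0, 19.7, 16.9 and 18.7 with KN046, and 17.7, 20.4, 25.3 and 25.2 in the controls. All 8 mice given SB525334, alone or with KN046, lay above the 4 mice given KN046 alone. It rose by 0.75 on the log2 scale in the combination against KN046 (SE 0.17, adjusted p = 0.00371) and was higher by 0.68 with SB525334 against KN046 (SE 0.17, adjusted p = 0.00896). Groups did not overlap for 20.3% of all genes in the first of these comparisons and for 22.6% in the second. Against control the log2 fold change was 0.45 with SB525334 (SE 0.17, adjusted p = 0.12) and 0.52 with the combination (SE 0.17, adjusted p = 0.0553). With the control pairs summed the latter had an adjusted p of 0.21. Left-out-mouse fits called Trem2 in the combination against control without control mouse 3 (adjusted p = 0.0453), control mouse 4 (adjusted p = 0.043) or combination mouse 1 (adjusted p = 0.0152).

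Trem2 and Cd68 had the most similar pattern of the 45 pairs of members: after each gene's mean was taken off, their log2(CPM + 1) values in the 16 mice differed by a root mean square of 0.21. Because these 2 genes carried the difference between the combination and KN046, the sequence before their start sites is shown, read from RefSeq (GRCm38.p6) 5′ to 3′ on the gene's strand, up to 250 bases before the annotated start and leaving out bases that GENCODE places inside the gene's own transcripts. A RefSeq promoter was matched for 7 of the 10 members. Capitals mark GAGGAA, the core letters bound by the myeloid factor PU.1, on either strand (TTCCTC on the other), and in Cd68 also the AP-1 motif TGAGTCA.
Trem2, chr17:48346151-48346400, plus strand: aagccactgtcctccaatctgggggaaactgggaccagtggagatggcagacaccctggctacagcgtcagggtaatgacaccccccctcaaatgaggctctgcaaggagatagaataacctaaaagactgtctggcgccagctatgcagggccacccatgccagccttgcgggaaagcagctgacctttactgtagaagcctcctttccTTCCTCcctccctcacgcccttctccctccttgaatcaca
Cd68, chr11:69666242-69666420, minus strand: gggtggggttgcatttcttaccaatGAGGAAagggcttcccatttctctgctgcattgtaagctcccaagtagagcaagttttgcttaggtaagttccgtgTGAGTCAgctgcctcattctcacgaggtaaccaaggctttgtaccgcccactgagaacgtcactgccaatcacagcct
The PU.1 letters began at position -40 of Trem2 and -225 of Cd68, counted from the annotated start, and the AP-1 letters at -149 of Cd68. A second AP-1 match of Cd68, at -24, lay in the bases left out of the sequence shown. GAGGAA on either strand was in the 250 bases of 5 of the 7 members matched and in 23.3% of 32851 RefSeq promoters of that length. The AP-1 letters were in 1 of 7 and 4.46%. In Spp1 and Cbr2 the only GAGGAA match lay in bases that GENCODE places inside the gene's own transcripts. Such bases were kept in these counts and shares. These are matches of letters, and binding was not measured.

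Gpnmb (ENSMUSG00000029816, chromosome 6, 49013426 to 49047863), a transmembrane glycoprotein of lysosome-rich macrophages, had 107, 113, 129 and 133 CPM in the controls and 141, 123, 81.8 and 185 with SB525334. It had 353, 129.7, 179 and 143 CPM with KN046 and 196, 146, 147 and 207 with the combination. Every combination mouse lay above every control mouse, as was so in either direction for 17.4% of all genes. KN046 mouse 1 stood far above the rest. The log2 fold change passed the threshold neither with the combination (0.53, SE 0.27, adjusted p = 0.267) nor with KN046 (0.74, SE 0.27, adjusted p = 0.118). Without KN046 mouse 1 the KN046 value was 0.32, and without KN046 mouse 2 it was 0.91 (adjusted p = 0.0338 by edgeR), so its size and its call rested on single mice.

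Spp1 (ENSMUSG00000029304, chromosome 5, 104582165 to 104589235), the secreted ligand osteopontin, had 232, 232, 131 and 126 CPM in the controls, where the 2 pairs of mice stood apart. It had 131, 91.8, 159 and 182 CPM with SB525334, 97.7, 188, 178 and 135 with KN046, and 121, 159, 129 and 190.3 with the combination. All groups overlapped, and the log2 fold changes against control were -0.35, -0.27 and -0.27, with adjusted p of 0.52, 0.548 and 0.583. The combination and KN046 had nearly the same mean, 150.0 ± 31.6 and 149.7 ± 41.8 CPM (SD, n = 4 each).

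Of the genes linked to alternative activation, Cbr2 rose with SB525334, Chil3 varied most among mice, and Mrc1 did not pass the test. Cbr2 (ENSMUSG00000025150, chromosome 11, 120620312 to 120622940) encodes a mitochondrial carbonyl reductase. It had 3.32, 4.83, 4.72 and 5.38 CPM in the controls and 13.4, 18.3, 8.22 and 8.06 with SB525334, so that each SB525334 mouse exceeded each control, as was so in either direction for 18.3% of all genes. The rise was 1.40 on the log2 scale (SE 0.30, adjusted p = 0.00355 by edgeR), and it was 1.40 with adjusted p = 0.0379 when the control pairs were summed, the highest of the alternatives, whose lowest was 4.6e-05. Levels were 7.14, 10.5, 9.01 and 6.36 CPM with the combination, again above every control mouse, as was so in either direction for 17.4% of all genes. The log2 fold change was 0.86 (SE 0.30, adjusted p = 0.0841). With KN046 the levels were 4.90, 7.10, 9.16 and 3.95 CPM, a log2 fold change of 0.46 against control (SE 0.30, adjusted p = 0.371). SB525334 exceeded KN046 by 0.93 (SE 0.30, adjusted p = 0.0347), a call that was lost without SB525334 mouse 1 (adjusted p = 0.0814), SB525334 mouse 2 (0.132), KN046 mouse 1 (0.0941) or KN046 mouse 4 (0.0766), and in the fit of those 8 mice alone (0.084). Counts of Cbr2 were 76 to 460 per mouse, the lowest of the list beside Chil3 and Nos2.

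Chil3 (ENSMUSG00000040809, chromosome 3, 106054870 to 106074880), the secreted chitinase-like lectin Ym1, had 30.7, 34.6, 32.0 and 31.6 CPM in the controls. It had 2.31, 4.90, 10.8 and 44.8 CPM with SB525334, 16.7, 8.07, 5.70 and 10.7 with KN046, and 3.18, 5.41, 2.24 and 21.4 with the combination. Control mice were the most even group, and mouse 4 of both SB525334 groups stood above the other 3. Every KN046 mouse and every combination mouse lay under every control mouse, as was so in either direction for 11.6% and 17.4% of all genes. The log2 fold changes against control were -1.65 with KN046 (SE 0.73, adjusted p = 0.186), -1.99 with the combination (SE 0.74, adjusted p = 0.104) and -1.04 with SB525334 (SE 0.71, adjusted p = 0.495), none past the threshold. Leaving out mouse 4 changed both calls: Chil3 fell by 2.42 with SB525334 without SB525334 mouse 4 (adjusted p = 0.0225 by edgeR), and it fell by 3.15 with the combination without combination mouse 4 (adjusted p = 0.00892). Chil4, a neighboring paralog whose canonical transcript is 94.4% identical to that of Chil3 over 1538 aligned bases, had 0 counts in every mouse, and reads that fit both genes were counted in a way that the sources used here do not state.

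Mrc1 (ENSMUSG00000026712, chromosome 2, 14234151 to 14336926), the mannose receptor CD206, had 90.6, 90.8, 47.2 and 48.1 CPM in the controls and 102, 64.0, 87.3 and 73.1 with SB525334. It had 84.9, 125, 82.9 and 53.3 CPM with KN046 and 67.1, 65.1, 75.1 and 59.3 with the combination. The groups overlapped in every comparison, and the log2 fold changes against control were 0.24, 0.32 and -0.05 under SB525334, KN046 and the combination, with adjusted p of 0.692, 0.444 and 0.921.

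Nos2 (ENSMUSG00000020826, chromosome 11, 78811613 to 78851080), which makes nitric oxide in inflammatory macrophages, had 21.5, 23.1, 5.43 and 6.74 CPM in the controls. It had 3.44, 2.03, 7.62 and 6.16 CPM with SB525334, 5.17, 2.82, 8.33 and 9.61 with KN046, and 10.9, 9.16, 9.12 and 29.7 with the combination. The high control values were those of mice 1 and 2, and the high combination value was that of mouse 4. Log2 fold changes against control were -1.56 with SB525334 (SE 0.54, adjusted p = 0.091), -1.13 with KN046 (SE 0.54, adjusted p = 0.216) and 0.06 with the combination (SE 0.52, adjusted p = 0.958). Every combination mouse exceeded every SB525334 mouse, as was so in either direction for 7.05% of all genes, with a log2 fold change of 1.62 (SE 0.54, adjusted p = 0.165). Without combination mouse 4 the combination value against control was -0.54.

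The interaction asks whether the effect of SB525334 differed with and without KN046, and 0 of 10 members passed it beside 4.28% of all genes (1.73% higher and 2.55% lower), with 3 at an unadjusted p under 0.05 and 1, Nos2, called by DESeq2. Nos2 had the largest value of the list, 2.75 on the log2 scale (SE 0.76, adjusted p = 0.0501), with means of 4.81 ± 2.54 CPM with SB525334 and 6.48 ± 3.07 with KN046, against 14.2 ± 9.38 in the controls and 14.7 ± 10.0 with both agents (SD, n = 4 each). Over the alternatives its adjusted p ran from 0.0272 to 0.102, and over the fits without 1 mouse from 0.0306 to 0.147, the highest without combination mouse 4. The value was -1.0 for Cbr2 (SE 0.42, adjusted p = 0.228) and 0.46 for Cd68 (SE 0.19, adjusted p = 0.231).

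Among the ligands and recruitment signals of the CSF1R axis, the ligands did not pass the test and 2 monocyte genes fell. Of the 10 genes of that list tested, 1 was lower with SB525334, 2 with KN046 and 0 in the combination group, against control, and none was higher. The shares of all genes called lower were 9.22%, 2.40% and 9.74% in that order. The median log2 fold change of the list was -0.30, -0.84 and -0.10 in that order, against 5.9e-04, -0.03 and 0.01 over all genes. Csf1, the main ligand of CSF1R, had 226 ± 10.6 CPM in the controls, 208 ± 14.3 with SB525334, 163 ± 60.0 with KN046 and 218 ± 29.9 in the combination group (SD, n = 4 each), with log2 fold changes of -0.12, -0.47 and -0.05 and adjusted p of 0.827, 0.156 and 0.906. Il34, the other ligand, had 71.8 ± 5.19, 87.1 ± 12.3, 80.9 ± 11.2 and 92.2 ± 8.32 CPM in the same order, with an adjusted p of 0.0553 for the combination against control. Ly6c2, a surface marker of inflammatory monocytes, fell by 2.42 with SB525334 (SE 0.61, adjusted p = 0.0126) and by 2.53 with KN046 (SE 0.62, adjusted p = 0.0356). The monocyte chemokine gene Ccl7 fell by 1.24 with KN046 (SE 0.32, adjusted p = 0.0407). With the control pairs summed, none of these 3 calls held (adjusted p of 0.0597, 0.215 and 0.224).

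A few partners of TREM2 in lipid handling fell with SB525334 or the combination and most were not called, while Trem2 itself did not pass the test in these comparisons. Of 21 genes for TREM2 adaptors and the lipid or lysosome program, 4 fell with SB525334 (Apoe, Lipa, Cd36 and Atp6v0d2) and 0 rose, and 0 were called with KN046. In the combination group 4 fell (Apoe, Lpl, Lipa and Atp6v0d2) and 1 rose, Cd63. Among all genes, 9.22% were lower with SB525334, and with the combination 9.74% were lower and 1.37% higher. The list medians were -0.13, 0.02 and 0.09 on the log2 scale, and with the combination 13 of the 21 genes had a positive value. Apoe, an apolipoprotein that macrophages and hepatocytes make, fell by 1.41 with SB525334 (SE 0.25, adjusted p = 6.3e-04) and by 2.08 with the combination (SE 0.26, adjusted p = 7.8e-06), from 3080 ± 559 CPM in the controls to 1158 ± 349 and 726 ± 187 (SD, n = 4 each). Cd36, a fatty acid receptor, fell by 1.59 with SB525334 (adjusted p = 0.0015). With the combination Cd36 had a mean of 18.3 CPM, against 18.6 in the controls, and was higher than with SB525334 (adjusted p = 0.0047 by edgeR). Lpl, lipoprotein lipase, fell by 1.67 with the combination (SE 0.32, adjusted p = 0.00102). Atp6v0d2, a subunit of the lysosomal proton pump, fell by 1.96 with SB525334 (SE 0.37, adjusted p = 0.00118) and by 1.37 with the combination (SE 0.37, adjusted p = 0.0171), the latter not with the control pairs summed (adjusted p = 0.0865). Hepatocyte genes fell in the same groups, as given below, and their part in the fall of Apoe was not tested. Tyrobp, the adaptor through which TREM2 signals, rose by 0.71 in the combination against KN046 (SE 0.17, adjusted p = 0.00705), from 26.5 ± 7.31 to 43.2 ± 7.55 CPM, beside the rise of 0.75 of Trem2. It was the only gene of this list called higher there. Apoe and Lpl were lower in the same comparison (adjusted p of 4.5e-05 and 0.0123 by edgeR), and the list median was 0.009. Hcst, the other adaptor, had 7 to 37 counts per mouse, and its difference of 0.78 between the combination and KN046 did not pass the threshold (adjusted p = 0.13).

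Of the receptors of osteopontin, 2 integrin genes were called. Of 7 genes tested, 1 was higher with SB525334, 0 differed with KN046 and 1 was lower with the combination, against control, with list medians of -0.04, 0.09 and 0.05. Among all genes, 0.394% were higher with SB525334 and 9.74% lower with the combination. Cd44, a receptor for hyaluronan and osteopontin, had log2 fold changes of 0.06, 0.36 and 0.16 under SB525334, KN046 and the combination (adjusted p of 0.889, 0.135 and 0.545), and the integrin gene Itgav had -0.04, 0.22 and 0.15 (adjusted p of 0.927, 0.351 and 0.568). The integrin gene Itgb5 rose by 0.40 with SB525334 (SE 0.11, adjusted p = 0.0287), a call kept in 3 of 8 fits without 1 mouse and lost with the control pairs summed (adjusted p = 0.178). Itga9 fell by 0.98 with the combination (SE 0.22, adjusted p = 0.0049).

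Alternative-activation genes other than the members fell at Cd163, a hemoglobin scavenger receptor of resident macrophages. Of 11 genes tested, 2 (Cd163 and Tgm2) were lower with SB525334, 0 with KN046 and 1 (Cd163) with the combination, against control, and none was higher. The shares of all genes called lower were 9.22%, 2.40% and 9.74%. Their median was -0.21, -0.44 and -0.20 in that order. Tgm2, a transglutaminase, fell by 0.43 with SB525334 (adjusted p = 0.00996), a call lost with the control pairs summed (adjusted p = 0.0726). Cd163 fell by 2.91 with SB525334 (SE 0.53, adjusted p = 7.4e-04) and fell by 3.76 with the combination (SE 0.57, adjusted p = 8.5e-05), from 14.1 ± 5.89 CPM in the controls to 1.85 ± 1.25 and 1.05 ± 0.710, and had 19.3 ± 9.38 with KN046 (SD, n = 4 each). Kupffer cell genes were lower in the same groups, with 7 of 8 called and list medians of -3.84 with SB525334 and -4.76 with the combination, and their part in the fall of Cd163 was not tested. Arg1, arginase 1, had 176 ± 8.68 CPM in the controls, 119 ± 77.2 with SB525334, 271 ± 73.7 with KN046 and 169 ± 68.9 in the combination group. It passed the threshold against control in no group, and was lower by 1.19 on the log2 scale with SB525334 than with KN046 (SE 0.36, adjusted p = 0.0298), a call kept in 4 of 8 fits without 1 mouse. In that comparison 2 genes of the list were lower (Arg1 and Cd163) and 2 higher (Mgl2 and Ccl17), with a list median of 0.42. The shares of all genes were 13.5% lower and 6.48% higher. The CD206-positive resident macrophage list, of which 7 genes were tested and which shares Cd163, had 3 genes (Lyve1, Gas6 and Cd163) lower with SB525334, 1 (Lyve1) higher with KN046, and the same 3 lower with the combination, with medians of -0.42, 0.24 and -0.78. Among all genes the matching shares were 9.22% lower, 1.60% higher and 9.74% lower. Lyve1, a hyaluronan receptor of resident macrophages and of sinusoidal and lymphatic endothelium, had 12.6 ± 5.38 CPM in the controls, 2.35 ± 1.01 with SB525334, 31.3 ± 8.92 with KN046 and 1 to 5 counts per mouse with the combination. It rose by 1.31 with KN046 (SE 0.33, adjusted p = 0.0404), which was lost with the control pairs summed (adjusted p = 0.246). Gas6, the ligand of the receptor MERTK, fell by 1.01 with SB525334 (SE 0.25, adjusted p = 0.0114, and 0.0699 with the control pairs summed) and by 1.45 with the combination (SE 0.25, adjusted p = 4.2e-04). Mrc1, the gene that names this state, passed the test in none of these comparisons.

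Several inflammatory genes other than Nos2 were called lower with KN046 alone than in the controls or with the combination. The list median against control was lowest with SB525334. Of 13 tested, 2 (Il1a and Cxcl10) were lower with SB525334, 4 (Il1b, Cxcl9, Cxcl10 and Acod1) with KN046 and 0 with the combination against control, and 5 (the same 4 and Irf5) were higher in the combination against KN046. Among all genes, 9.22%, 2.40% and 9.74% were lower against control, and 9.89% were higher in the combination against KN046. The list medians were -1.13, -0.76 and -0.23 against control, in the order SB525334, KN046 and combination, and 0.47 in the combination against KN046. In the combination against SB525334 the median was 0.79, with 0 of 13 called beside 3.57% of all genes. Il1a (interleukin-1α) fell by 1.90 with SB525334 (adjusted p = 0.0456), a call kept in 1 of 8 fits without 1 mouse, and the chemokine gene Cxcl10 fell by 1.13 (adjusted p = 0.0132), a call lost with the control pairs summed (adjusted p = 0.0757). Cxcl9, an interferon-γ-induced chemokine, had 61.9 ± 18.4 CPM in the controls, 36.4 ± 15.2 with SB525334, 12.1 ± 8.05 with KN046 and 68.5 ± 25.9 in the combination group (SD, n = 4 each). It fell by 2.35 with KN046 (SE 0.45, adjusted p = 0.017) and rose by 2.49 in the combination against KN046 (SE 0.45, adjusted p = 5.8e-04). Il1b (interleukin-1β) fell by 2.19 with KN046 (SE 0.58, adjusted p = 0.0458) and rose by 1.99 in the combination against KN046 (SE 0.58, adjusted p = 0.0192). Acod1, which makes itaconate, fell by 2.33 with KN046 (SE 0.55, adjusted p = 0.0328) and rose by 2.10 in the combination against KN046 (SE 0.55, adjusted p = 0.0117). With the control pairs summed, none of the 4 calls of KN046 against control held, with adjusted p of 0.165 for Cxcl9, 0.197 for Cxcl10, 0.212 for Acod1 and 0.234 for Il1b. Of 8 fits without 1 mouse, the call was kept in 6 for Cxcl9, 3 for Cxcl10, 2 for Acod1 and 1 for Il1b.

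Several general myeloid genes were, like Cd68 and Trem2, higher with the combination than with KN046. Of 15 macrophage and monocyte identity genes, all tested, 0 were called with SB525334, 2 were lower with KN046 and 1 was lower with the combination against control, and 6 were higher and 1 lower in the combination against KN046. Among all genes, 2.40% were lower with KN046 and 9.74% with the combination against control. In the combination against KN046, 9.89% of all genes were higher and 14.5% lower. The list medians were -0.16, -0.56 and 0.02 against control and 0.55 against KN046. The 2 lower with KN046 were Cd53, a leukocyte tetraspanin that fell by 0.64 (SE 0.14, adjusted p = 0.0239), and Fcer1g, an Fc receptor chain that fell by 0.59 (SE 0.16, adjusted p = 0.046). Neither call held with the control pairs summed (adjusted p of 0.197 and 0.263). Mertk, which binds dying cells through GAS6, fell by 0.78 with the combination (SE 0.24, adjusted p = 0.0479), a call kept in 3 of 8 fits without 1 mouse. The identity genes were present in every mouse, with a summed level of 1566 to 1682 CPM in the controls, 1396 to 2069 with SB525334, 785 to 1415 with KN046 and 1635 to 2342 with the combination.

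The members were also set against 6 myeloid genes (Tyrobp, Fcer1g, Spi1, Aif1, Laptm5 and Cd53), whose mean log2(CPM + 1) was 5.52 ± 0.03 in the controls, 5.34 ± 0.16 with SB525334, 4.88 ± 0.37 with KN046 and 5.49 ± 0.18 in the combination group (SD, n = 4 each). Taking off this mean adds 1 amount to the difference of every gene in a comparison, set by the reference genes alone, and Cd53 and Fcer1g among them were called lower with KN046. It therefore changes how the members stand to these 6 genes and not how they stand to each other. In the combination against KN046 the plain differences of 0.71 for Trem2 and 0.52 for Cd68 became 0.10 and -0.09 relative to the reference genes. Among these reference genes, Tyrobp, Spi1 and Cd53 were themselves called higher in that comparison, so the smaller values depend on the choice of reference. The differences of the combination from control shifted less, with Csf1r at -0.44 plain and -0.41 relative, and Chil3 at -2.32 and -2.29. These relative values are descriptions without a test, and pseudocount 1 understates changes of low genes.

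**Figure D3:**
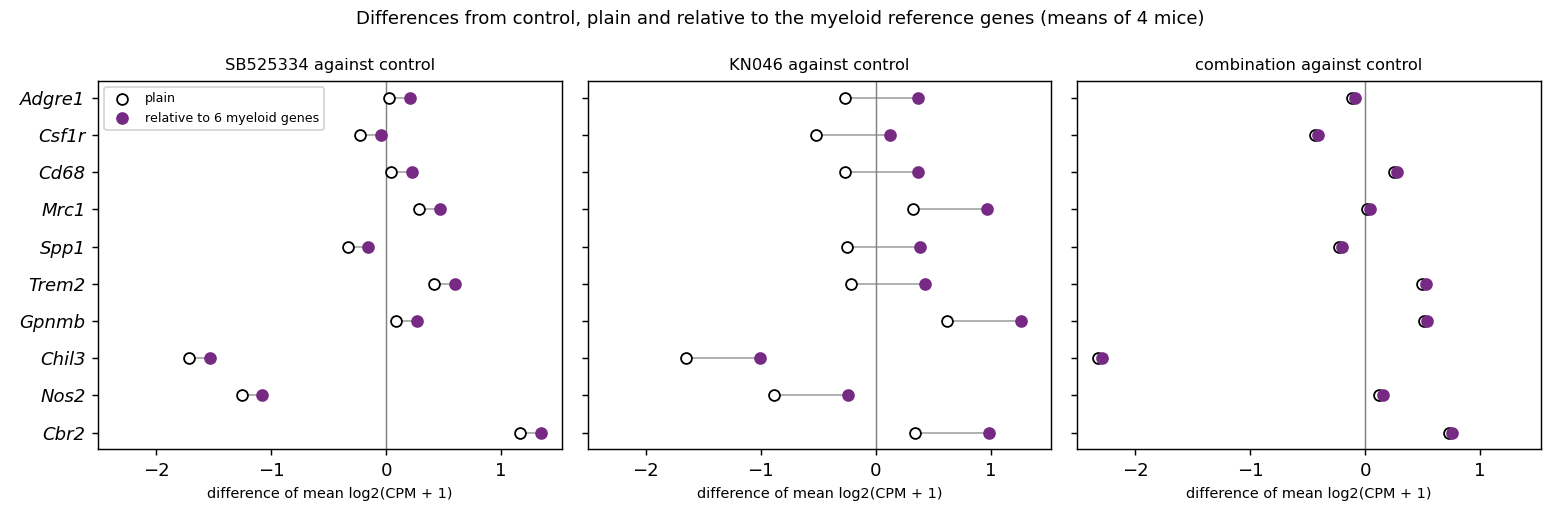
Difference of mean log2(CPM + 1) from control for each of the 10 genes, plain (open) and relative to the mean of 6 myeloid genes (purple), for SB525334, KN046 and the combination, each point a difference between means of 4 mice. In the KN046 panel every gene shifts to the right by the same amount, and in the combination panel the 2 points nearly coincide.

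Markers of hepatocytes, Kupffer cells and neutrophils differed widely between the groups. As background for the counts below, 9.22%, 2.40% and 9.74% of all genes were lower with SB525334, KN046 and the combination, against control. The 15 hepatocyte genes summed to 19363 to 23981 CPM in the controls, 781 to 2707 with SB525334, 11527 to 24505 with KN046 and 74.9 to 95.4 with the combination, and all 15 were called lower in both groups given SB525334. The 8 Kupffer cell genes summed to 200.5 to 429 CPM in the controls, 15.1 to 33.6 with SB525334, 66.5 to 503 with KN046 and 7.01 to 23.6 with the combination, with 7 of 8 lower in both groups given SB525334 and 0 with KN046 alone. Clec4f, which defines Kupffer cells, had 67.2 ± 34.9 CPM in the controls and 0, 1, 2 and 2 counts in the combination mice. The broad macrophage genes Adgre1, Csf1r and Cd68, which Kupffer cells also use, were not called in these comparisons, and the part of Kupffer cells in their levels was not tested. Splenic red pulp macrophage genes summed to 375 to 412, 320.4 to 331, 331 to 397 and 391 to 466 CPM in the order control, SB525334, KN046 and combination. Dendritic cell genes summed to 17.8 to 31.0, 17.7 to 30.2, 11.6 to 25.9 and 16.7 to 25.2, and biliary and epithelial genes to 368 to 483, 174 to 259, 336 to 652 and 195 to 235, in that order. Against control, edgeR called 0 of 7 dendritic cell genes in any group. Of the red pulp list Spic and Treml4 were lower with SB525334 and Treml4 with the combination, and of the epithelial list Krt8 and Krt18 were lower with SB525334 and Krt8, Krt18, Epcam and Krt7 with the combination.

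**Figure D4:**
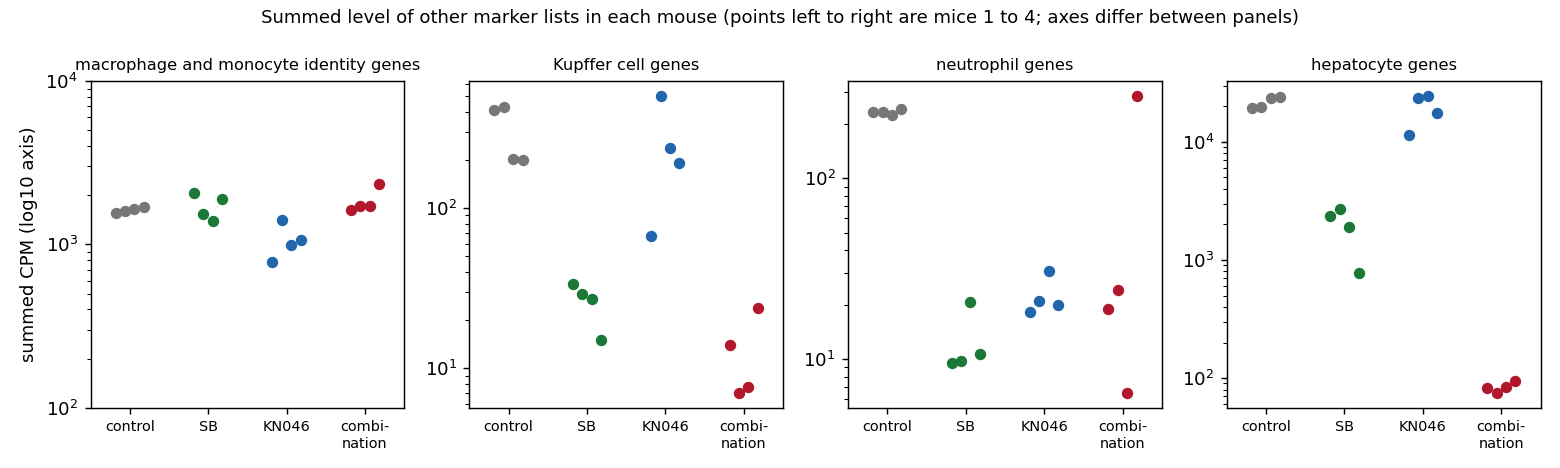
Summed CPM of 4 marker lists in each mouse on log10 axes, with points from left to right for mice 1 to 4 of each group. The identity genes stay within 785 to 2342 CPM, whereas hepatocyte and Kupffer cell genes are low in the SB525334 and combination groups, and neutrophil genes are at 225 to 241 CPM in the controls and 286 in combination mouse 4.

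Neutrophil genes were high in the mice with Chil3 of 21.4 CPM or more, with 1 exception. KN046 mouse 1 came next, with Chil3 of 16.7 CPM and a low neutrophil sum of 18.3. The 11 neutrophil genes summed to 225 to 241 CPM in the controls, 9.49 to 20.6 with SB525334 and 18.3 to 30.8 with KN046, and to 18.9, 24.2, 6.50 and 286 in combination mice 1 to 4. Against control, 10 of 11 were lower with SB525334, 6 with KN046 and 3 in the combination group. The shares of all genes were 9.22%, 2.40% and 9.74% in that order. S100a8, an abundant neutrophil calcium-binding protein, had 27.8 ± 5.27 CPM in the controls, 0 to 2.58 with SB525334, 1.40 to 3.63 with KN046, and 0.328 to 3.97 with the combination apart from mouse 4 at 47.2. Combination mouse 4, with the highest neutrophil sum, also had the highest Chil3 and Nos2 of its group. Control mice 3 and 4, with neutrophil sums of 225 and 241, had Nos2 of only 5.43 and 6.74 CPM. SB525334 mouse 4 had the highest Chil3 of all mice, 44.8 CPM, with a neutrophil sum of 10.7. The part of neutrophils and their precursors in the Chil3 counts was not tested.

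**Figure D5:**
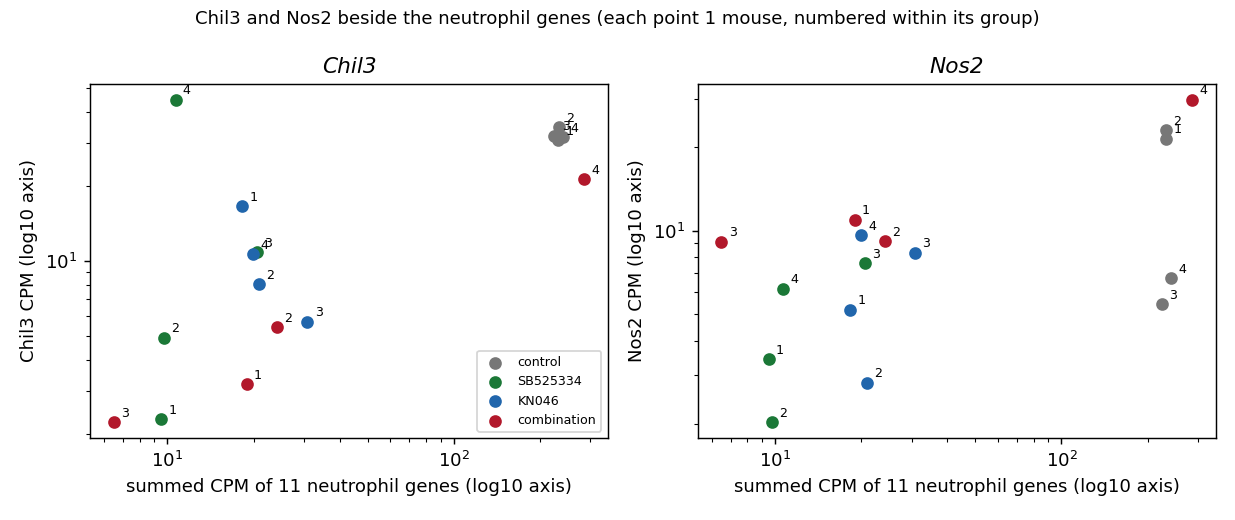
Chil3 (left) and Nos2 (right) in each mouse against the summed CPM of 11 neutrophil genes, both on log10 axes, each point numbered by mouse within its group. The 4 controls and combination mouse 4 lie at the right with Chil3 of 21.4 to 34.6 CPM, and SB525334 mouse 4 lies at the upper left of the Chil3 panel.

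The patterns nearest to the 3 members that varied most were searched among 12837 genes, by the root mean square difference of log2(CPM + 1) around each gene's mean over the 16 mice. Chil3, whose own root mean square was 1.26, was nearest to Slit3 (0.86), Mmp8 (0.88), a collagenase of neutrophils, and Cthrc1 (0.88). Nos2, at 0.90, was nearest to Mmp12 (0.48), the macrophage elastase, Tspan13 (0.49) and Mmp13 (0.50). Cbr2, at 0.55, was nearest to Plet1 (0.32), Insyn1 (0.35) and Ephb6 (0.37). The most similar pairs within the list were Trem2 with Cd68 at 0.21, Adgre1 with Csf1r at 0.23 and Csf1r with Spp1 at 0.32.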

How the data were processed

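The values were raw counts per gene, made by the authors from 16 mRNA libraries of MC38 liver tumor tissue. Per the study's methods and the submitters' processing notes, the deposited counts came from reads trimmed with Cutadapt 2.7, aligned to GRCm39 with HISAT2 2.2.1 and counted with HTSeq 2.0.4, and the authors tested them with DESeq2 1.38.3. Strand and multi-mapping settings are not given in the sources used here. A second set of deposited tables, the same counts divided by a size factor, was not used.

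Of 21959 Ensembl IDs, 21770 matched GENCODE M39 for symbols and coordinates. Groups followed the labels. Counts were fitted with edgeR 4.0.16 in R 4.3.3 (TMM scaling, filterByExpr with minimum count 10, quasi-likelihood test, Benjamini-Hochberg threshold 0.05) over all 16 mice, with 13968 genes tested. DESeq2 1.42.0 was an alternative, beside other scalings and filters, the study's thresholds, the 8 mice compared alone, control pairs summed, a replicate block and leaving out each mouse. Nothing in the labels says more of the origin of the mice than their group, so p-values measure the spread between these 16 samples. On simulated data, 90.9% of 197 genes changed 4-fold in the combination against control were recovered. The simulated mice were drawn independently, without alike control pairs, so this share does not tell how often smaller differences would be called. The members and the gene lists were chosen with earlier results of these data known. The text names the 10 members, Csf1, Il34, Tyrobp, Hcst, Cd44, Itgav, Arg1 and Chil4 whatever their values, up to 3 called genes with the largest change per list in each comparison with control, the 3 nearest patterns of a member, and Clec4f, Alb and S100a8. Lipa, Cd63, Irf5, Tnf, Mgl2, Ccl17, Spic, Treml4 and the keratin and Epcam genes fall outside that rule and were named after their values were seen.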

Additional observations from a re-analysis of the deposited data

Results flagged for a closer look

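In 84 groups of 4 mice, the level of a gene in 1 mouse stood apart from the other 3 in 6 groups, and chance alone gives about 4.2. Combination mouse 4 had 21.4 CPM of Chil3, against 2.24 to 5.41 in the other 3. The same mouse had 29.7 CPM of Nos2 (9.12 to 10.9 in the others), 47.2 CPM of S100a8 (0.328 to 3.97) and 1.74 CPM of Hcst (0.828 to 0.976). SB525334 mouse 3 had 2.58 CPM of S100a8, against 0 to 0.388 in the other 3. KN046 mouse 1 had 0.373 CPM of Hcst, against 0.726 to 0.779.

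The effect of SB525334 differed with and without KN046, by the interaction term of edgeR, for 9 genes of the lists around the members. Among all genes, 4.28% were called in the interaction, 1.73% higher and 2.55% lower. The interaction, on the log2 scale with its SE, was 3.36 ± 0.76 for Acod1 (adjusted p = 0.0157), 3.26 ± 0.61 for Cxcl9 (adjusted p = 0.00453), 2.24 ± 0.41 for Cxcl10 (adjusted p = 0.00316), 3.40 ± 0.80 for Il1b (adjusted p = 0.0203) and 2.31 ± 0.64 for Tnf (adjusted p = 0.0491). It was 3.98 ± 0.86 for Ly6c2 (adjusted p = 0.0116), 1.61 ± 0.44 for Ccl7 (adjusted p = 0.0483) and 0.94 ± 0.19 for Cd53 (adjusted p = 0.00771). For Lyve1 it was -5.29 ± 0.66 (adjusted p = 9.2e-05), a fitted value that rests on 1 to 5 counts per combination mouse. With the control pairs summed the calls of Acod1 (adjusted p = 0.0535), Ccl7 (adjusted p = 0.13), Il1b (adjusted p = 0.0667) and Tnf (adjusted p = 0.143) were lost and those of the other 5 genes were kept. Of 16 fits without 1 mouse, the calls of Ccl7 and of Tnf were each kept in 2 and those of the other 7 genes in all 16. Neutrophil genes had an interaction in the same direction as all of these but Lyve1, with 9 of 11 called higher and a list median of 7.83. The size of that median is uncertain. The neutrophil sum was 286 CPM in combination mouse 4, and 18.9, 24.2 and 6.50 in combination mice 1 to 3. It was 9.49 to 20.6 CPM with SB525334 and 18.3 to 30.8 with KN046. The part of neutrophil genes in the interaction values above was not tested.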

How the results depend on the processing

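With the replicate number as a block, 1 member was called in the combination against control, Chil3 (-2.56, adjusted p = 0.0126), and the value of Nos2 in that comparison turned to -0.19 and that of Csf1r in the combination against KN046 to 0.021. Mice with the same number in different groups correlated with a median of -0.02 over 24 pairs, with 9 over 0.1. The other 72 pairs had a median of -0.0049, with 21 over 0.1. These medians showed no pairing by number, but with control mice so alike they cannot exclude it. The block changed no other count of members called.

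The study's thresholds (unadjusted p of 0.05 and a fold of 2) called 2 members with SB525334 and 2 with KN046, each against control, 1 with the combination against control, 1 with the combination against KN046, 1 with the combination against SB525334, 0 with SB525334 against KN046 and 2 in the interaction. The 8 mice compared alone gave 1 with KN046 against control, 3 with the combination against control and 1 with SB525334 against KN046. DESeq2 called 2 with the combination against control and 1 in the interaction, upper quartile scaling called 1 with the combination against control, and the fit without the filter on low counts called 1 in the interaction. For the combination against KN046, Spp1, at 0.0027, turned to -0.0032 with DESeq2 size factors, -0.0019 with DESeq2 and -0.0086 in the 8 mice alone, and Csf1r, at -0.01, to 0.0052 with upper quartile scaling. Of the values of single members under alternatives that kept every mouse, 591 kept their direction and side of the threshold, 18 came past the threshold, 5 lost it and 6 turned. No scaling moved the median of all genes by over 0.1. Over all genes, the calls of KN046 against control (224 higher, 335 lower) became 588 and 662 with DESeq2, 12 and 63 in the 8 mice alone and 0 and 0 with the control pairs summed, and those of the interaction (242 and 356) became 525 and 592 under the study's thresholds, 404 and 553 with DESeq2 and 93 and 205 with the control pairs summed. Under the study's thresholds and in the 8 mice alone, those of the combination against KN046 (1381 and 2025) became 341 and 1341, and 508 and 1347, those of SB525334 against KN046 (905 and 1882) became 151 and 1342, and 470 and 1381, and those of the combination against SB525334 (76 and 423) became 207 and 615, and 57 and 237.

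Leaving out each mouse in turn, the members called were 1 to 2 with SB525334, 0 to 2 with KN046 and 0 to 1 with the combination, each against control, 2 to 2 with the combination against KN046, 0 to 0 with the combination against SB525334, 1 to 3 with SB525334 against KN046 and 0 to 1 in the interaction. Nos2 was called with SB525334 against control without control mouse 3 (adjusted p = 0.0415). Cd68 with SB525334 against KN046 was called without SB525334 mouse 3 (adjusted p = 0.0382), and Gpnmb without KN046 mouse 2 (adjusted p = 0.0477). Other values changed sign with 1 mouse left out. In SB525334 against control the values ran from -0.16 to 0.22 for Adgre1, -0.020 to 0.17 for Cd68, -0.061 to 0.32 for Gpnmb. In combination against control the values ran from -0.19 to 0.10 for Mrc1, -0.54 to 0.39 for Nos2. In combination against KN046 the values ran from -0.072 to 0.39 for Adgre1, -0.20 to 0.27 for Csf1r, -0.15 to 0.12 for Spp1, -0.38 to 0.22 for Gpnmb, -1.50 to 0.0038 for Chil3. In combination against SB525334 the values ran from -0.35 to 0.035 for Adgre1, -0.079 to 0.23 for Spp1, -0.026 to 0.17 for Trem2, -2.12 to 0.43 for Chil3. In SB525334 against KN046 the values ran from -0.25 to 0.15 for Mrc1, -0.23 to 0.076 for Spp1, -0.77 to 0.98 for Chil3. In the interaction the values ran from -0.14 to 0.33 for Adgre1, -0.53 to 0.066 for Gpnmb, -0.47 to 2.08 for Chil3. The cause of these changes was not tested. Counts as low as 41 per mouse for Chil3 limit the precision of single values.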
